A study of Homo sapiens with 3 samples.

Results

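The genes described here build the early secretory pathway. They target, insert, cleave and glycosylate proteins at the endoplasmic reticulum (ER) and carry them between the ER and the Golgi in COPII and COPI coated vesicles. The set was a list of 52 genes, found on the arrays by gene symbol, with older symbols taken as the same gene. It was chosen with earlier results of these data known. 48 of the 52 had a probe, 43 of them 1 probe and 5 of them 2, which gave 53 of the 24454 gene probes kept. In all, 17556 genes had a probe. SEC61A2, SSR1, SEC11A and KDELR2 matched no annotated probe and were not analysed here. 52 of the 53 probes were detected on all 3 arrays, and the last, for SPCS2, was not detected on the DKK3 array.

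The cells were HSC-3, a squamous carcinoma line from human tongue, in which DKK3 was overexpressed. DKK3 is a secreted glycoprotein of the Dickkopf family. One culture was not transfected, the second carried a GFP expression plasmid, and the third a plasmid for full-length DKK3 with an HA tag. All were grown in medium with 10% serum, and the labels put RNA extraction 24 hours after transfection. Neither the plasmids' promoter nor the share of transfected cells is stated in the labels. A treatment label also names C2C12, a mouse line, while title, description and source name the human tongue line. All 11 squamous epithelial marker genes with a probe were detected on each array, KRT5 and KRT14 among them. This compares with 2 of 6 fibroblast, 4 of 5 leukocyte, 2 of 4 endothelial and 3 to 5 of 6 skeletal muscle markers. Summed over the probes of a list, spot intensity was 42698 to 52994 for the squamous markers and 160 to 552 for the other lists. The probe for DKK3 read a spot intensity of 539 untransfected, 749 with GFP and 64328 with DKK3. Each condition was 1 Cy5-labelled array, so no difference below has a replicate check or a p-value, and 3 arrays limit how precise any value is. In a whole culture, a shift in every cell and a larger shift in some of the cells cannot be told apart.

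As background, a nascent secretory protein is bound by the signal recognition particle, docks at the particle's receptor and passes through the SEC61 channel. Signal peptidase removes its signal peptide and the oligosaccharyltransferase attaches N-glycans. COPII vesicles, formed by the GTPase SAR1, move cargo out of the ER, and COPI vesicles return escaped ER residents that KDEL receptors have bound. Many of these genes are known targets of XBP1 and ATF6, the transcription factors of the unfolded protein response.

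Some promoters of the set hold a motif that did not enter its choice. RefSeq promoter windows of assembly GRCh38.p14, from 250 bases before to 50 bases after a start, were at hand for 45 of the 52 genes. These had 60 windows, since a gene can have more than 1 start. The windows were searched on both strands for TGACGTGG, a motif known to be bound by XBP1 and ATF6. It occurred in 10 of the 45 genes, or 22.2%, against 0.927% of all 27305 genes with a window and 1.24% of the 10805 of these that were detected on the GFP or the DKK3 array. The 10 genes were COPA, COPB1, COPB2, SSR3, SSR4, SEC62, SRP19, SEC24A, SEC23A and KDELR3. In 8 of them a copy lay wholly before the start that its window is built on, between 17 and 179 bases upstream of it. For SEC24A, SSR3 and SSR4 this copy lay inside the annotated span of the gene, so downstream of the gene's outermost start. The shorter CCACG, which every copy of TGACGTGG holds on the other strand, was present in 82.2% of the 45 genes and 42.1% of all genes. The classical ER stress element, CCAAT and CCACG with 9 bases between them, was found in 0 of the 45 and 0.0916% of all genes. A match describes the letters of a window and is no evidence of binding.

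4 of the copies are shown because their surroundings overlap no annotated gene, with the motif, read here on its other strand, in capitals. They belong to the translocon partner SEC62 (chr3:169966760-169966806, plus strand), the signal recognition particle subunit SRP19 (chr5:112861145-112861212, plus strand), the COPI coat subunit COPB1 (chr11:14499822-14499889, minus strand) and the retrieval receptor KDELR3 (chr22:38468020-38468087, plus strand). Each is written 5′ to 3′ along the gene's own strand.
SEC62: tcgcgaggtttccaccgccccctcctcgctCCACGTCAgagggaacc
SRP19: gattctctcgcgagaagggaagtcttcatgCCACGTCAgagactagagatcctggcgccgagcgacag
COPB1: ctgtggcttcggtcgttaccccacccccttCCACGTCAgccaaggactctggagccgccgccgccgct
KDELR3: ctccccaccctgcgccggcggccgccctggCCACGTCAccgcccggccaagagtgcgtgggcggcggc

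All levels below are normalized log2 intensities, and a difference is the level on one array minus that on another. Most secretory probes were a little brighter with DKK3 than with GFP. 42 of 53 lay above 0, where 49.1% of all 17579 probes detected on either array did. Their median difference was 0.12, or 1.09-fold, and that of all probes was -0.0013. 9 of the 53 probes, or 17%, were at least 1.2-fold higher, against 2.25% of all probes, and 1 was at least 1.2-fold lower, against 2.97%. None of the 53 reached 2-fold, which 0.256% of all probes did. The scale of a typical difference between these arrays, the robust SD over all probes, was 0.084.

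The secretory probes are brighter than most, and bright probes scattered more widely, with a robust SD of 0.16 at like level. Among the 2997 gene probes of like level, between the members' lower and upper quartile of mean level, 8.26 and 10.33, 50.8% lay above 0, the median was 0.0045, and 4.84% were 1.2-fold higher on the DKK3 array. The members' median lay 0.12 above that of these probes, and from 0.11 to 0.15 above it in the alternative settings, but the share above 0 moved with the scaling. With the arrays scaled to a common median, 30 of the 53 lay above 0 with a median of 0.027, while 24.6% of the probes of like level did, with a median of -0.11. SEC24D was then the 1 probe still at least 1.2-fold higher. The authors' deposited table gave 41 of 53 above 0 and a median of 0.15.

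**Figure D1:**
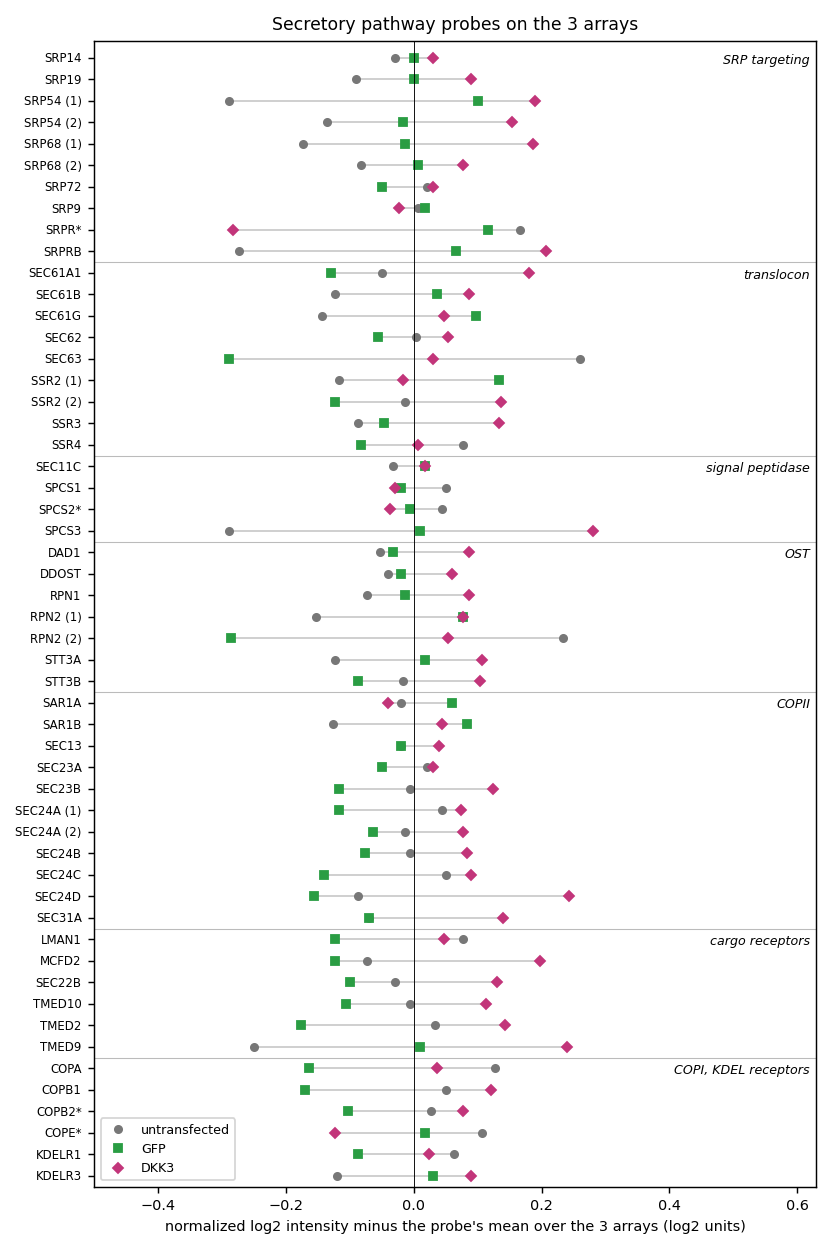
Normalized log2 intensity of each of the 53 probes on the untransfected (grey circles), GFP (green squares) and DKK3 (magenta diamonds) arrays, drawn as the distance from the probe's own mean over the 3 arrays and grouped by role. Numbers in brackets tell apart 2 probes of a gene, and asterisks mark the 4 probes printed in blocks 22 to 24. The DKK3 array is the highest for 36 of the 53 probes.

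Asked which array was the brightest for each probe, 36 of the 53 probes, or 67.9%, were highest on the DKK3 array, 10 on the untransfected array and 7 on the GFP array. Over all 18162 probes detected on at least 1 array these shares were 30.3%, 36.8% and 32.9%. The GFP array was the lowest for 25 of the 53, the untransfected array for 22 and the DKK3 array for 6, against 33.3%, 32.3% and 34.4% of all probes.

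**Figure D2:**
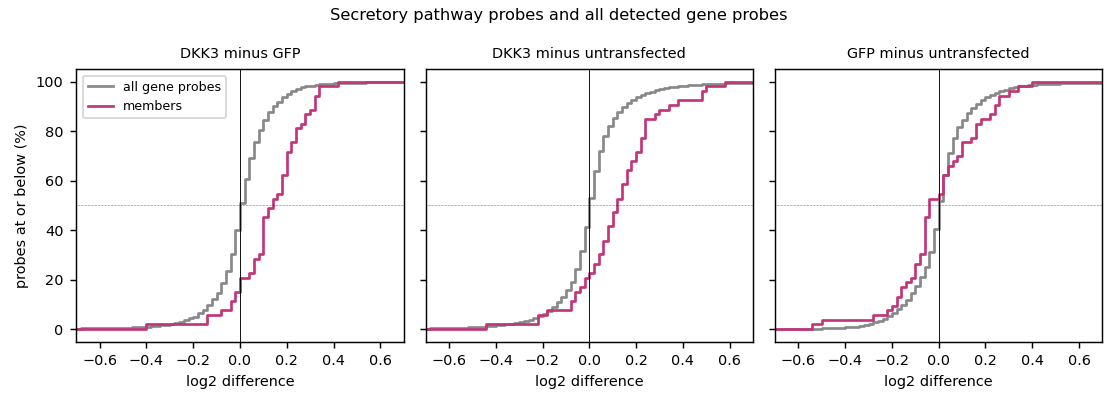
Cumulative share of probes (%) by log2 difference in the 3 comparisons, for the 53 secretory probes (magenta) and all detected gene probes (grey). The magenta curve is shifted to the right in both comparisons that use the DKK3 array, with medians of 0.12 and 0.11, and crosses the grey one in GFP minus untransfected, where its median is -0.049.

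Cargo receptors and the p24 proteins, which sort cargo into vesicles at ER exit sites, were the role with the highest median, 0.23 over 6 probes, all of them above 0. MCFD2, the soluble partner of LMAN1 in the export of coagulation factors (chr2:46901870-46941855), had levels of 9.27 on the untransfected, 9.22 on the GFP and 9.54 on the DKK3 array. It thus stood apart on the DKK3 array alone, 1.25-fold above GFP, a difference of 0.33 that was 0.22 under the common median. TMED2, a p24 protein that forms complexes with TMED10, stood at 11.45, 11.24 and 11.56 in the same order and was highest with DKK3 and lowest with GFP, a DKK3 minus GFP difference of 0.32, or 0.14 under the common median. TMED9, another p24 protein, stood at 10.72 untransfected, 10.98 with GFP and 11.21 with DKK3, so both transfected arrays were above the untransfected one. Its difference from GFP, 0.23, was 0.087 under the common median. TMED10 and SEC22B, a SNARE of ER and Golgi traffic, both differed by 0.22. For LMAN1, the lectin that carries glycoproteins out of the ER, the difference from GFP was 0.17, yet the DKK3 level of 6.86 was no higher than the untransfected level of 6.89.

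The COPII coat, which pinches vesicles from the ER, had a median of 0.16 over 11 probes, 9 of them above 0. Its cargo-binding subunit SEC24D (chr4:118722823-118836126) had levels of 7.02, 6.95 and 7.35 on the untransfected, GFP and DKK3 arrays. Here the untransfected and GFP arrays lay close together and the DKK3 array above both, 1.32-fold over GFP, the highest of the 53 differences. In the authors' deposited table the SEC24D probe read 40, 31 and 49, a log2 difference of 0.66 where the normalized levels gave 0.40. The paralog SEC24C differed by 0.23, but its levels of 8.96, 8.77 and 9.0 show the GFP array low and the others close together. SEC24A (0.19 and 0.14 on its 2 probes) and SEC24B (0.16) were higher with DKK3 as well. All 5 probes of the SEC24 paralogs were therefore above 0 against GFP.

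The inner and outer coat followed in part. SEC23B, the GTPase-activating partner of SEC24, had levels of 9.18, 9.07 and 9.31 and a difference of 0.24, while its paralog SEC23A differed by 0.081. The outer coat subunit SEC31A was at 9.17 on both the untransfected and the GFP array and at 9.38 on the DKK3 array. SEC13, the other outer subunit, differed by 0.059. The 2 GTPases that start the coat were on the other side of 0. SAR1A was at -0.10 and SAR1B at -0.034, and SAR1B levels of 9.05, 9.26 and 9.22 were higher on both transfected arrays than on the untransfected one.

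In the translocon and its partners the median was 0.12 over 9 probes, 7 of them above 0. SEC61A1, the pore of the channel (chr3:128051641-128071683), stood at 9.58 untransfected, 9.50 with GFP and 9.81 with DKK3, highest on the DKK3 array by 0.31 over GFP, or by 0.20 under the common median. The small channel subunits differed less, SEC61B by 0.054 and SEC61G by -0.044 (-0.24 under the common median), and SEC61G levels of 12.60, 12.84 and 12.79 were higher on both transfected arrays. SEC63, the membrane J-protein that helps the channel open, had levels of 8.90, 8.35 and 8.67. Its difference of 0.32 from GFP goes with a GFP level 0.54 below the untransfected one, and the DKK3 level was still 0.23 below it. SEC62, which works with SEC63, differed by 0.12, and the translocon-associated proteins SSR3 and SSR4 by 0.19 and 0.087.

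SSR2 showed how far 2 probes of a gene can part. One probe was lowest untransfected, read 11.25 with GFP and 11.10 with DKK3, a difference of -0.15, and the other read 11.10, 10.99 and 11.25 and was higher by 0.26. The 2 probes of RPN2 differed as well, with a DKK3 minus GFP difference of -0.0068 on one and 0.33 on the other. Those of SRP68, SRP54 and SEC24A lay 0.13, 0.08 and 0.05 apart. Over all 1464 genes with 2 probes detected on all 3 arrays the median gap between probes was 0.0839 and its 90th percentile 0.27. A difference under about this size at a single probe is therefore within the disagreement between probes of a gene, which takes in most of the 53.

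The oligosaccharyltransferase, which transfers the glycan to asparagine, had a median of 0.099 over 7 probes with 6 above 0, but -0.023 with the arrays scaled to a common median. STT3B, one of its alternative catalytic subunits, had levels of 7.23, 7.16 and 7.35, highest with DKK3 by 0.19 over GFP, and the other catalytic subunit, STT3A, differed by 0.085. RPN2 on its second probe stood at 10.53 untransfected, 10.01 with GFP and 10.35 with DKK3, so GFP was low and DKK3 did not reach the untransfected level, while its first probe stood at 10.76, 10.99 and 10.99. DAD1 was at 12.19, 12.21 and 12.33, a difference of 0.12 that turned to -0.034 under the common median. RPN1 and DDOST, other structural subunits, differed by 0.10 and 0.084.

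Signal peptidase was the role with the lowest median, -0.0068 over 4 probes, with 3 below 0, though the median was 0.027 with block and row medians subtracted. SPCS3, the subunit needed for catalytic activity (chr4:176319966-176332245), went against the others with levels of 10.16 untransfected, 10.46 with GFP and 10.73 with DKK3. It stood 0.27 above GFP and 0.57 above the untransfected array, the highest of the 53 in the latter comparison. Under the common median its difference from GFP was 0.12, below 1.2-fold. SPCS1 was at 10.38, 10.31 and 10.30, and SEC11C, a catalytic subunit, at 7.83, 7.88 and 7.88. SPCS2, at 5.94 and 5.89 on the 2 arrays that detected it, was too dim for a fold.

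For targeting by the signal recognition particle the median was 0.086 over 10 probes, 8 of them above 0, and -0.030 with the common median. Several of its genes were lowest untransfected, higher with GFP and highest with DKK3. SRP54, the GTPase that binds the signal sequence, had levels of 9.76, 9.88 and 10.05 on one probe and 9.84, 10.23 and 10.32 on the other, whose difference from GFP of 0.094 was -0.031 under the common median. SRP68 stood at 9.06, 9.22 and 9.42 on one probe and at 9.0, 9.09 and 9.16 on the other, again untransfected lowest and DKK3 highest. SRPRB, the membrane anchor of the receptor, was at 9.06, 9.40 and 9.54. SRP19 and SRP72 differed from GFP by 0.086 and 0.085, SRP14 by 0.029 (-0.17 under the common median) and SRP9, its partner in the Alu domain, by -0.043.

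The receptor's other subunit, SRPR (now SRPRA, chr11:126235930-126268895), was the exception, at 7.18 untransfected, 7.13 with GFP and 6.73 with DKK3. This was the lowest of the 53 differences, -0.40, and the 1 probe at least 1.2-fold lower, and it was -0.70 in the authors' deposited values. It was printed in block 23 of 24. In blocks 22 to 24, 31.1% of all detected probes lay above 0 in DKK3 minus GFP and 13.1% were at least 1.2-fold lower, against 51.6% and 1.53% in the other blocks. 4 of the 53 probes lay there, and 3 of them, SRPR, COPE and SPCS2, were below 0. The part of print position in these values was not tested. Without the 3 blocks, 41 of 49 probes were above 0 with a median of 0.14. With block and row medians subtracted, 45 of 53 were above 0 with a median of 0.11. Over 9 alternative settings, that one among them, the SRPR difference ran from -0.70 to -0.34.

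COPI, the coat of retrograde vesicles, and the KDEL receptors had a median of 0.14 over 6 probes, 5 of them above 0. COPB1, a large coat subunit, had levels of 10.38, 10.16 and 10.45, and COPA levels of 7.70, 7.41 and 7.61. The COPB1 difference from GFP, 0.30, was 0.16 under the common median. COPB2, on a spot of block 22, stood at 9.51, 9.38 and 9.56. In all 3 the GFP array was the lowest, by up to 0.29 under the untransfected array, and the DKK3 array was near the untransfected level. COPE, on a spot of block 23, was at 9.53, 9.44 and 9.30. KDELR1 differed from GFP by 0.11, and KDELR3, with levels of 6.63, 6.78 and 6.84, by 0.054.

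Against the untransfected array, which differs from the DKK3 array in both transfection and DKK3, 41 of 53 probes were above 0 on the DKK3 array, against 47% of all 18121 probes. This comparison shares the DKK3 array with the one above and is not independent of it. The median was 0.11, and 8 probes, or 15.1%, were at least 1.2-fold higher, against 3.96% of all and 9.38% of the probes of like level. 1 probe, SRPR, was as much lower, against 3.77% of all and 9.28% at like level, and 0 reached 2-fold, against 0.292%. The 8 were both SRP54 probes, an SRP68 probe, SRPRB, SPCS3, TMED9, SEC24D and MCFD2. 3 genes passed 1.2-fold over both other arrays, SPCS3, SEC24D and MCFD2, or 5.66% of the probes, against 0.98% of all probes. The share among probes of like level was not counted for this rule. Under the common median SPCS3 and MCFD2 were less than 1.2-fold above GFP. The roles parted here. Targeting had a median of 0.17, cargo receptors 0.14 and the COPII coat 0.082, while COPI with the KDEL receptors was at 0.0031, with 3 of 6 above 0.

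GFP minus untransfected, which compares a control plasmid with no plasmid, had a median of -0.049 with 24 of 53 above 0, against 48.3% of all 18076 probes. 3 probes were at least 1.2-fold higher, SRP54, SRPRB and SPCS3, and another 3 as much lower, SEC63, an RPN2 probe and COPA. Each 3 are 5.66% of the 53, above the 3.74% and 3.43% of all probes but below the 8.88% and 8.64% of the probes of like level. None reached 2-fold, against 0.254% of all. By role, 8 of 10 targeting probes were above 0 with a median of 0.092, and 5 of 6 probes each of the cargo receptors and of COPI with the KDEL receptors were below 0, with medians of -0.085 and -0.14. Apart from TMED9 (0.26) and KDELR3 (0.15), a DKK3 minus GFP value in these last roles is therefore measured from a GFP level under the untransfected one.

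**Figure D3:**
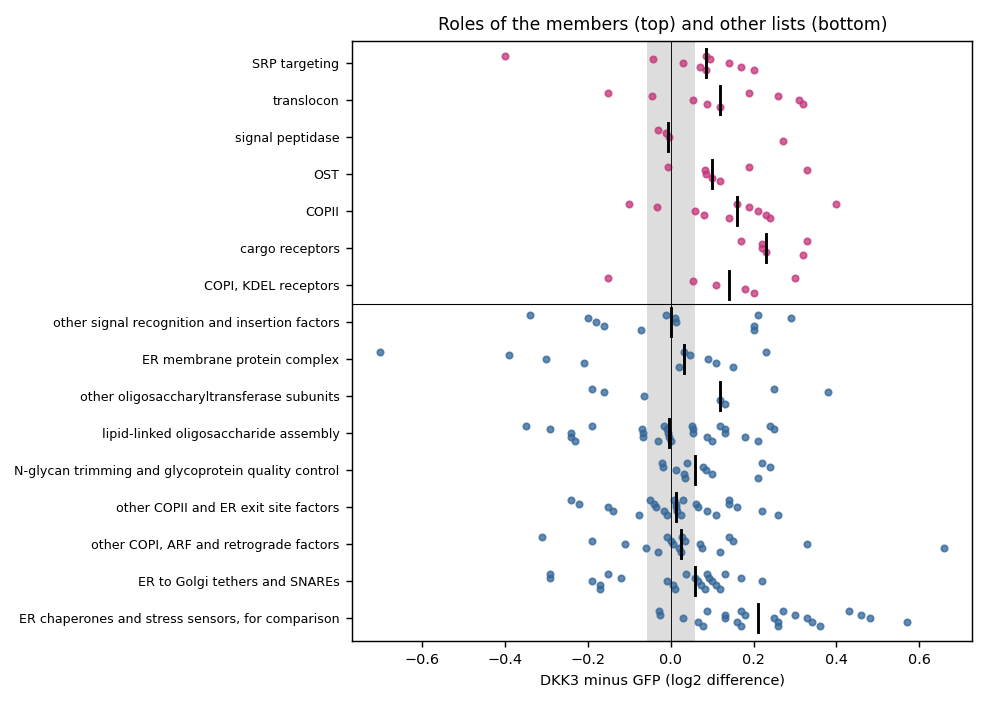
DKK3 minus GFP log2 difference of each detected probe by role (magenta) and for 9 other lists (blue). Black bars are medians and the grey band spans the quartiles of all detected gene probes, from -0.056 to 0.058. The medians of 4 roles lie at 0.12 or above, and among the other lists those of the ER chaperones (0.21) and the other oligosaccharyltransferase subunits (0.12) do. With the arrays scaled to a common median, those of targeting and the oligosaccharyltransferase were below 0.

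Other genes of the pathway, listed by function, had a median nearer to 0. Members and lists were chosen with earlier results of these data known, so their medians are no independent comparison. Over 136 detected probes of 117 genes outside the set, 83 were above 0 with a median of 0.025. 4 of them, or 2.94%, were at least 1.2-fold higher and 9, or 6.62%, as much lower. Over all probes these shares were 2.25% and 2.97%, and among probes at the members' level 4.84% and 6.77%. None of the lists is shown to differ from the 52 genes, since no test of that was possible. Some of these probes were printed in blocks 22 to 24, where 31.1% of all detected probes lay above 0, against 51.6% elsewhere. In the ER membrane protein complex these were EMC2, EMC3, EMC6, EMC9 and MMGT1. The part of print position in the medians of these lists was not tested. ARF4, an ADP-ribosylation factor of the early secretory pathway, had the highest difference of these lists, 0.66, with spot intensities of 1646, 1656 and 2210. ARCN1, the delta subunit of COPI, was at 0.33, while ARF3 was at -0.31 from a high GFP level. In the list of other COPI and ARF genes the median was 0.026 and, with the common median, -0.056.

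Among the other oligosaccharyltransferase subunits OSTC was at 0.38, or 0.12 on its other probe, and TUSC3 at 0.25, or 0.13 on its other. MAGT1, on a spot of block 23, was at -0.19. The list's median of 0.12 over 7 probes became -0.065 when probes of a gene were averaged. Of other translocation factors, TRAM1 was at 0.29, BAG6 at 0.21 (0.20 on its other probe) and BTF3 at -0.34, with a median of 0.00018. TRAM1 was low with GFP, and its DKK3 level differed from the untransfected one by 0.0019. BTF3 was high with GFP, 0.92 above the untransfected array, and with DKK3 it was 0.57 above that array. In lipid-linked oligosaccharide assembly, which makes the glycan before transfer, NUS1 was at 0.25, or -0.031 on its other probe, in block 22. ALG1 was at -0.29 and ALG5, on a spot of block 24, at -0.35. In this list 13 of 27 probes were above 0. Glycan trimming and quality control had 10 of 12 above 0 and a median of 0.059, led by MOGS (0.24), MAN2A1 (0.22) and MGAT2 (0.21). The other MOGS probe was at 0.04. For the MOGS probe at 0.24 and for MAN2A1 the GFP array was low, with GFP minus untransfected at -0.28 and -0.25.

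The ER exit site factors SEC16A (0.26) and CNIH1 (0.22) were higher than with GFP. Against the untransfected array the 2 differed by 0.12 and 0.0099 with DKK3 and by -0.14 and -0.21 with GFP. YIF1A was at -0.24 on a probe of block 22 and at -0.22 on one of block 21. The list median was 0.013 (-0.070 under the common median). Tethers and SNAREs of ER to Golgi traffic had 15 of 23 above 0, with GORASP2 at 0.22 and the TRAPP subunits TRAPPC5 and TRAPPC2L both at -0.29. Their median of 0.058 was -0.035 under the common median. The ER membrane protein complex, which inserts membrane proteins beside SEC61, had 7 of 11 above 0, with EMC6 and EMC9, both in block 22, at -0.70 and -0.30 and EMC7 at -0.39. Its median of 0.033 was -0.077 under the common median.

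The ER chaperones and stress sensors, listed for comparison, had 22 of 24 probes above 0 and a median of 0.21. 9 of the 24 probes, or 37.5%, were at least 1.2-fold higher, against 2.25% of all probes. HERPUD1 (0.57), SDF2L1 (0.48) and DNAJB9 (0.46) were in front. The 52 genes thus had a median of 0.12 where the chaperones had 0.21, and the difference between the lists was not tested.

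The genes with TGACGTGG in the promoter window had 11 of 11 probes above 0 in DKK3 minus GFP, with a median of 0.14 and values from 0.054 (KDELR3) to 0.30 (COPB1). Members whose window lacks it had 27 of 36 above 0 and a median of 0.11. Of the 9 probes at 1.2-fold they held 7, or 19.4% of the 36, against 1, or 9.09% of the 11, with the motif. SEC24D, also among the 9, had no promoter window. The difference between members with and without the motif was not tested. Outside the 52 genes, 139 probes of 124 array genes with the motif had 61.9% above 0 and a median of 0.030, and 11981 probes without it had 50.9% and 0.0019. Against the untransfected array, the members with the motif had a median of 0.05 and those without it 0.12, the opposite order.

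**Figure D4:**
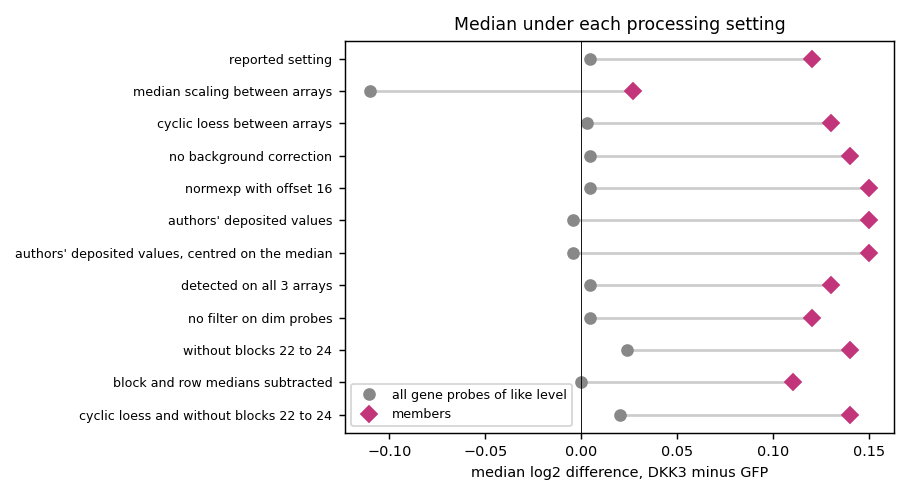
Median DKK3 minus GFP log2 difference of the secretory probes (magenta diamonds) and of all gene probes of like level (grey circles) under each processing setting. The secretory median runs from 0.027 to 0.15 and lies to the right of the grey one in every setting drawn, and with median scaling both move to the left, the grey one to -0.11.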

How the data were processed

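The scanner files hold spot median intensity at 635 nm. Per the file headers, this deposited value combines scans at different gains, joined by fitted straight lines. A second column, labelled background, tracked the spots themselves (correlations of log2 values from 0.994 to 0.998), so it was not subtracted. The series table holds intensity deposited by the authors, scaled to a median of 25 per array as deduced from the values. From the spot intensities, normexp (offset 50) and quantile normalization in limma 3.58.1 (R 4.3.3) gave log2 levels. Control spots and 6 faulty gene probes were left out, which kept 24454. A probe was detected above the mean plus 2 SD of the blanks, at 40.8, 33.8 and 36.6 on the untransfected, GFP and DKK3 arrays, and counted where either array compared detected it. Symbols came from the platform annotation, 2898 of 20231 updated through a unique RefSeq synonym. The members and lists were chosen with earlier results of these data known. Genes were named by size of difference within each role (3 largest, 1 smallest), the 3 largest in GFP minus untransfected, and probes that disagree by over 0.3. In each other list the 3 largest were named. Proteins of paralogous members were not analysed here.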

Additional observations from a re-analysis of the deposited data

How the results depend on the processing

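No paired analysis was possible because each group is 1 array. For the whole set, its roles and the other lists, shifts are given where they exceed the robust SD of all probes, or 1.5 times for a count. Between DKK3 and GFP, the members' median lay from 0.11 to 0.15 in 11 of 12 alternatives. With median scaling it was 0.027, with 1 probe at least 1.2-fold higher in place of 9. By role, median scaling gave -0.030 for targeting, -0.023 for the oligosaccharyltransferase, 0.13 for cargo receptors and 0.044 for COPI with KDEL receptors. Of the other lists it gave -0.085 for translocation factors, -0.077 for the ER membrane protein complex, 0.0044 for other oligosaccharyltransferase subunits (-0.065 with probes of a gene averaged), -0.094 for lipid-linked oligosaccharide assembly, -0.035 for tethers and SNAREs and 0.11 for ER chaperones. The authors' deposited values gave 0.15 for glycan trimming, as given and centred. Against the untransfected array the authors' deposited values shift the median of all probes to -0.26 with DKK3 and -0.22 with GFP. The members' medians there were -0.081 and -0.26, with 16 and 9 above 0 and 5 and 0 at least 1.2-fold higher. Centred, 16 and 8 were 1.2-fold higher, and with median scaling 7 were in GFP minus untransfected. The cause of these shifts was not tested. Combining cyclic loess with leaving out blocks 22 to 24, and the background of like level, were chosen after seeing the data. Of the 337 values of single members under the alternatives, 35 shifted by more than the robust SD, 22 of them with median scaling. Beside those given in the report, median scaling gave 0.21 for SEC63, 0.20 and 0.11 for the higher probes of RPN2 and SSR2, 0.13 for SEC23B, 0.10 for SEC24C, 0.070 for COPB2, 0.080 for SRP68, 0.049 for the SRP54 probe with the higher difference from GFP and -0.16 for SAR1B. Among the members named with a DKK3 minus GFP difference of 1.2-fold or more, none turned its sign under these alternatives. Signal over background limits SPCS2, which was not detected on the DKK3 array.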

Other observations

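The ER stress element, absent from the windows of the 45 members with a promoter entry, was found in the windows of 18 other genes detected on the GFP or the DKK3 array. Their 22 probes had 17 above 0 in DKK3 minus GFP, a median of 0.16 and 4, or 18.2%, at least 1.2-fold higher. Of 12098 probes of other array genes without the element, 51% were above 0, 2.46% were at least 1.2-fold higher and the median was 0.0021. Against the untransfected array 20 of the 22 were above 0 with a median of 0.11, and in GFP minus untransfected 12 were, with a median of 0.015. How many of the 18 genes are also on the ER chaperone list was not counted. Their values were not set against probes of like level or taken under the common median. These are values of 3 arrays without replicates.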
